A study of Sus scrofa with 33 samples.

Results

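The features described here were chosen by one rule from the deposited expression table of pig pituitaries. A feature is 1 oligonucleotide probe on the array, and it was selected when all 11 arrays of Large White (LW) pigs lay above, or all 11 lay below, all 11 arrays of Creole (CR) pigs, with no missing value. Of the 45630 features complete on these arrays, 131 met the rule, which is 0.287% of them. Features of a fixed set of genes were then left out, which removed 26. The 105 members that remained were 65 features higher in LW and 40 lower in LW, out of 45667 features in the table. A gene symbol could be given to 42 of them, covering 34 genes, and 63 are named here by identifier. The size and direction of the LW to CR difference chose the members, so those values are a description and carry no test.

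The samples were pituitary tissue of castrated male growing pigs, taken from the anterior lobe according to the methods of the study. The pigs were LW (11 arrays), CR (11 arrays) or an F1 cross of the 2 breeds (11 arrays), kept in Guadeloupe and moved to a climatic room at 11 weeks of age. They were slaughtered either under thermoneutral conditions (TN, 16 arrays, 24 °C in the labels) or after some days of heat exposure (HS, 17 arrays, 30 °C in the labels, a value that the text of the series gives differently). The groups held 5 LW TN, 6 LW HS, 5 CR TN, 6 CR HS, 6 F1 TN and 5 F1 HS arrays, 1 array per pig. According to the methods, the pigs of a breed were arranged in blocks of littermates. The labels do not say which pigs were littermates, so p-values here measure the spread between pigs, of which some are related. Which breed was the dam of the F1 pigs was not given in the sources used here.

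Large White is a fast-growing commercial breed and Creole a local Caribbean breed. The anterior pituitary secretes growth hormone, prolactin, thyrotropin, the gonadotropins and pro-opiomelanocortin products, each mostly from its own cell type. An F1 pig carries 1 copy of each autosome from each breed. An F1 level at that of 1 parent is called dominant, and an F1 level midway is called additive. An array probe measures only the stretch of transcript that it matches.

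The labels were checked before the members were described. On the array LW HS 3 the title names Large White and the breed field names Creole, and it is analysed here as Large White after its title. With the same genes left out, the rule gave 121 features when LW HS 3 was omitted, against 105 with it, and LW HS 3 lay nearer to the LW mean on 99 of them (81.8%) and inside the CR range on 16 (13.2%). For the other 21 LW and CR arrays, each left out in the same way, the share nearer to the own breed's mean ran from 64.9% to 97.2%, and the share inside the other breed's range from 2.78% to 27.7%. With LW HS 3 taken as Creole the count, on the same basis, was 27 in place of 105, and 11 of the 27 were members. The tissue carried defining transcripts of the anterior lobe in all breeds, and hormone transcripts known from the posterior lobe were also bright. GH1, the growth hormone gene, was at 19.00 in LW and 19.06 in CR on the log2 scale, and PRL, the prolactin gene, was at 18.83 and 18.88. AVP, the vasopressin gene, was at 16.98 and 16.96, and OXT, the oxytocin gene, at 15.71 and 15.65. The other 2 posterior lobe markers measured were NKX2-1, at 9.27 and 9.62, and GFAP, at 6.09 and 6.35, both well above background on all 33 arrays. Between 73.5% and 82.2% of the spots of an array were well above background, and no spot was saturated.

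The oligonucleotides that carry the main results are printed here as designed, 5′ to 3′, from the deposited array annotation. Where several member features belong to 1 gene, the stretch common to all of them is in capitals, which shows how far they measure the same piece of transcript. The single features are shown because their gene has no second member feature or because its other features gave another value.
SLC44A4, feature 1: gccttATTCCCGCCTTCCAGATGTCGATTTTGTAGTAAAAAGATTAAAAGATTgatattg
SLC44A4, feature 2: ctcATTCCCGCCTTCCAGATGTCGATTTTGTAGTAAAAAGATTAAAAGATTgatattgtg
SLC44A4, feature 3: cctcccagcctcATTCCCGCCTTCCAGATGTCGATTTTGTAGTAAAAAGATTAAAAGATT
PNPLA4, feature 1: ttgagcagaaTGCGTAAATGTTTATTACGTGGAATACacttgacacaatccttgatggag
PNPLA4, feature 2: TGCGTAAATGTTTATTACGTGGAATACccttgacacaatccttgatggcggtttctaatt
TNNC2, feature 1: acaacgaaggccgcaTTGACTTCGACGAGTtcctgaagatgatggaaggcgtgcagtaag
TNNC2, feature 2: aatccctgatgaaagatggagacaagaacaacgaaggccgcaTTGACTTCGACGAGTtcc
TNNC2, feature 3: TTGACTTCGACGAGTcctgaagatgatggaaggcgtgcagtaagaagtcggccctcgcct
PDE4B, feature 1: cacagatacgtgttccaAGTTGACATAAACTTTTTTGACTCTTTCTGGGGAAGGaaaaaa
PDE4B, feature 2: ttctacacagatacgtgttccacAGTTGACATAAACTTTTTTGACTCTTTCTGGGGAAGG
ODF3B: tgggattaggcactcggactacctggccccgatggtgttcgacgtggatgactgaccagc
DCPS: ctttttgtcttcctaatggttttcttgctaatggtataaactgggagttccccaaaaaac
GHR: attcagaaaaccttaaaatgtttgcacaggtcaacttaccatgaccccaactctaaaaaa
TIAM1: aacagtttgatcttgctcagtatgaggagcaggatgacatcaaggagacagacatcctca
GALNT1: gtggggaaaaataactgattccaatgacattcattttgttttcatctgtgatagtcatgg
PCDH11X: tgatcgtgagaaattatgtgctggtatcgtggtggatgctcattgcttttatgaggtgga

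The 3 SLC44A4 features shared a stretch of 48 bases. The 2 further members, OTTSUST00000000473 and OTTSUST00000000475, which the files leave without a name, had the same 60 bases as the second SLC44A4 feature and are treated with it. These 5 members therefore measure 1 site. The 2 PNPLA4 features shared 27 bases, the 2 PDE4B features 37, and the 3 TNNC2 features 15. C4H8orf37 also had 2 member features, with 28 bases in common, and the 2 CHCHD7 features had 52. Median GC content was 38.3% for the members and 41.7% for all features of the table.

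The members differed between the breeds by much more than a typical feature, as their selection requires. The median size of the LW to CR difference was 0.85 log2 units over the members and 0.08 over all features. Among the 65 members higher in LW the median difference was 0.94 (1.92-fold), the smallest 0.14 and the largest 3.27, and 27 exceeded 1 log2 unit. Among the 40 members lower in LW the median was -0.66 (1.58-fold), the sizes ran from 0.19 to 2.09, and 10 exceeded 1 log2 unit. The spread within a parental breed was ordinary. The median SD over the 11 arrays was 0.20 in LW and 0.21 in CR for the members, against 0.20 and 0.19 over all features. On each of the 5 slides, every one of which held LW and CR arrays, all 105 members had the direction of the whole set, as the rule fixes, and the median size of the difference ran from 0.71 on slide 3 to 0.86 on slide 1.

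**Figure D1:**
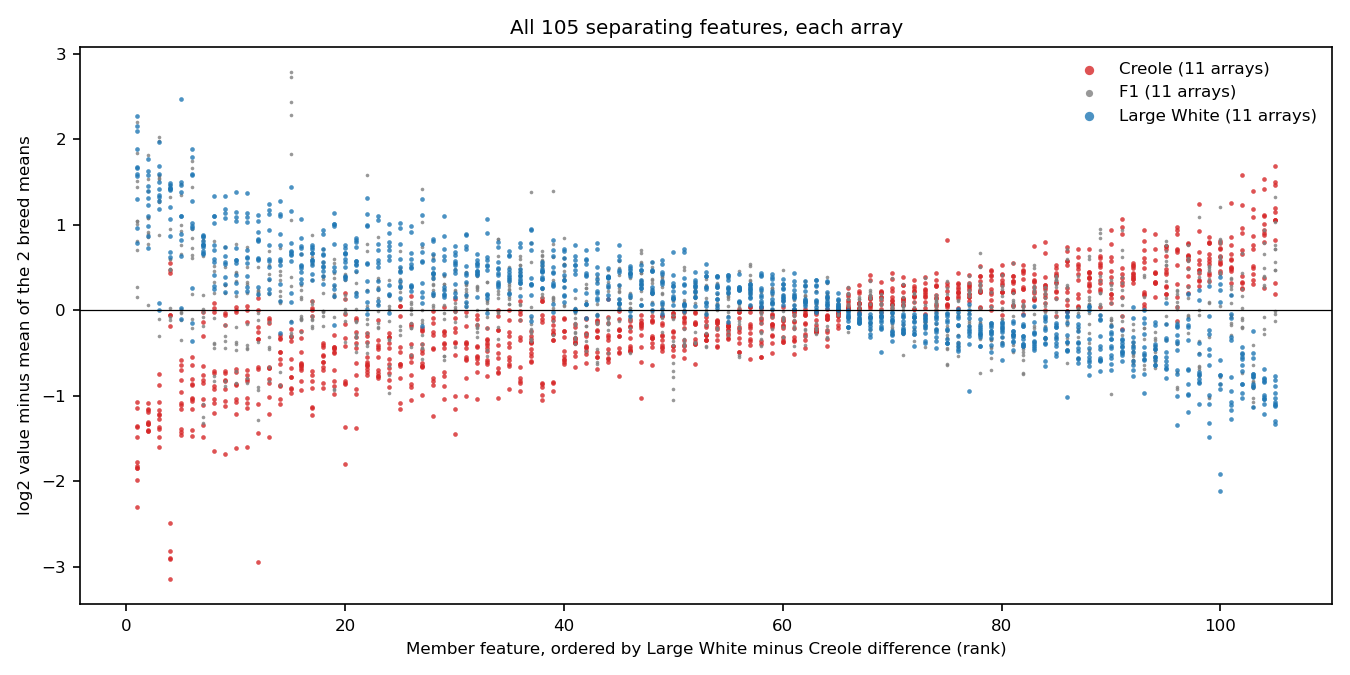
Each array's log2 value minus the mean of the LW and CR means (vertical axis) for the 105 members ordered by their LW minus CR difference (horizontal axis, rank), with 11 points per genetic group. LW and CR points never overlap within a member, from 3.27 log2 units higher in LW on the left to 2.09 lower on the right, while 45.9% of the F1 points lie in the LW range, 35.8% in the CR range and 11.3% between the ranges.

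The rule has a sharp edge, and some members passed it narrowly. The closest was PRCP, where the lowest LW array was at 11.27 and the highest CR array at 11.27, a gap of 0.00013 log2 units. OAT (gap 0.00060) and TC591480 (gap 0.0032) were the next closest. Just outside were TICAM2 with an overlap of 0.00094, PON2 with 0.0012 and C2CD4A with 0.0015, all 3 lower in LW on average. Spots well above background on every one of the 33 arrays were found for 89 members, and 16 members lacked this on 1 or more arrays. With the slide effect removed from the values, 166 features outside the left-out genes met the rule in place of 105, and 88 of the 105 members were among them.

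The named members are described here in groups by known role, which were made after their values had been seen and were not tested as groups. The first holds 4 genes of transport and lipid metabolism, of which 3 were higher in LW and 1 lower. SLC44A4 encodes a choline transporter-like protein. Its first feature lay between 13.76 and 14.88 in LW (median 14.17), between 11.86 and 13.52 in CR (median 12.73) and between 12.66 and 14.28 in the F1 (median 13.37). LW was thus 2.79-fold above CR, and the F1 reached into both ranges. PNPLA4, a patatin-like phospholipase that acts on triglycerides and retinyl esters, ran from 7.39 to 8.94 in LW (median 8.25), from 6.56 to 7.36 in CR (median 7.08) and from 6.79 to 8.38 in the F1 (median 7.88) on its first feature. That was 2.42-fold higher in LW, and the second feature gave 2.25-fold. DDHD2, a lipase of intracellular membranes, was 1.83-fold higher in LW (9.28 ± 0.18 against 8.41 ± 0.39, SD, n = 11 each). GPAT3, which catalyses the first step of triglyceride synthesis, was on the other side, at 6.73 ± 0.14 in LW and 7.15 ± 0.22 in CR.

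Receptors and signalling proteins stood on both sides. GHR encodes the growth hormone receptor, and its member feature lay between 8.35 and 10.12 in LW (median 9.31), between 10.17 and 10.69 in CR (median 10.44) and between 8.80 and 10.34 in the F1 (median 10.16). CR was 2.36-fold above LW, and the CR arrays were tightly grouped (SD 0.18) while the LW arrays were not (SD 0.55). TIAM1, an exchange factor that activates the GTPase RAC1, was 1.91-fold lower in LW, with LW from 6.80 to 7.68, CR from 7.78 to 8.35 and the F1 from 7.24 to 8.40. RAB11B, a GTPase of recycling endosomes, was 1.49-fold lower in LW (6.85 ± 0.10 against 7.42 ± 0.15). RNF216, a ubiquitin ligase, was 1.55-fold lower (10.56 ± 0.13 against 11.19 ± 0.17). PDE4B, which degrades cyclic AMP, was higher in LW by 0.71 log2 units on its first feature and 0.63 on the second. IGFBP5, a binding protein of insulin-like growth factors, was higher in LW by 0.68, and WNT2B, a secreted WNT ligand, lower by 0.30.

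Several members are genes best known from sperm, cilia or muscle. ODF3B encodes a protein related to the outer dense fibres of the sperm tail. It lay between 7.86 and 9.82 in LW (median 9.20), between 6.25 and 7.10 in CR (median 6.62) and between 7.55 and 9.88 in the F1 (median 9.38). The 5.41-fold difference was the largest of a member with an informative gene symbol, and no F1 array reached the CR range. ZPBP, a zona pellucida binding protein of the acrosome, was 1.97-fold higher in LW (8.32 ± 0.32 against 7.34 ± 0.32). SPAG6, a protein of the ciliary central apparatus, was 1.84-fold lower in LW (6.17 ± 0.29 against 7.04 ± 0.31). C4H8orf37, whose human counterpart is needed in photoreceptors, was higher in LW by 0.83 log2 units on its first feature and 0.44 on its second. TNNC2, the calcium-binding troponin of fast skeletal muscle, was higher in LW by 1.12, 1.02 and 0.85 on its 3 features. Its CR values were close to background, being well above it on only 6 or 7 of the 11 CR arrays.

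Members with known or presumed roles in RNA handling, translation or transcription were DCPS, LOC100524282, FOXP2, CREB3, EPC1 and DHX40, 4 higher and 2 lower in LW. DCPS encodes the scavenger enzyme that hydrolyses the cap left after mRNA decay. All 11 LW arrays lay between 9.32 and 9.54 (median 9.43), whereas CR ran from 7.17 to 8.65 (median 7.85) and the F1 from 7.34 to 9.53 (median 8.64). The LW spread (SD 0.08) was much smaller than that of CR (SD 0.47) and of the F1 (SD 0.79). LOC100524282, described as similar to the ribosomal protein RPL37A, was 5.19-fold higher in LW by the group means. Its CR arrays formed a low set of 5 between 10.45 and 11.11 and a high set of 6 between 13.41 and 14.14, while LW ran from 14.21 to 15.08 (median 14.99), so the low set carried much of that fold. FOXP2, a forkhead transcription factor, was higher in LW by 0.96 log2 units and CREB3, a membrane-bound transcription factor, by 0.46. EPC1, a subunit of a histone acetyltransferase complex, was lower in LW by 0.19, although its 2 other features were 0.07 and 0.09 higher, and DHX40, a putative RNA helicase, by 0.20.

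The remaining named members were mostly enzymes and membrane proteins with smaller differences. Higher in LW were ZDHHC5, a palmitoyltransferase (0.94 log2 units), PCDH11X, a protocadherin (0.57), GALNT1, which starts mucin-type O-glycosylation (0.52), GLB1L, related to beta-galactosidase (0.50), CTSA, the lysosomal protective protein (0.47), OAT, ornithine aminotransferase (0.43), DYNC1LI2, a dynein chain (0.41), and PRCP, a peptidase of angiotensin and melanocortin peptides (0.33). CHCHD7, a small mitochondrial protein, was higher by 0.33 and 0.31 on its 2 features. CYTB, the cytochrome b of the mitochondrial genome, had the smallest difference of the members higher in LW, 0.14, at a level of 17.82 ± 0.06 in LW and 17.68 ± 0.07 in CR. Lower in LW were TMEM213, a transmembrane protein (1.06), and SLC45A2, a melanosomal transporter known for its part in coat and skin colour (0.68).

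**Figure D2:**
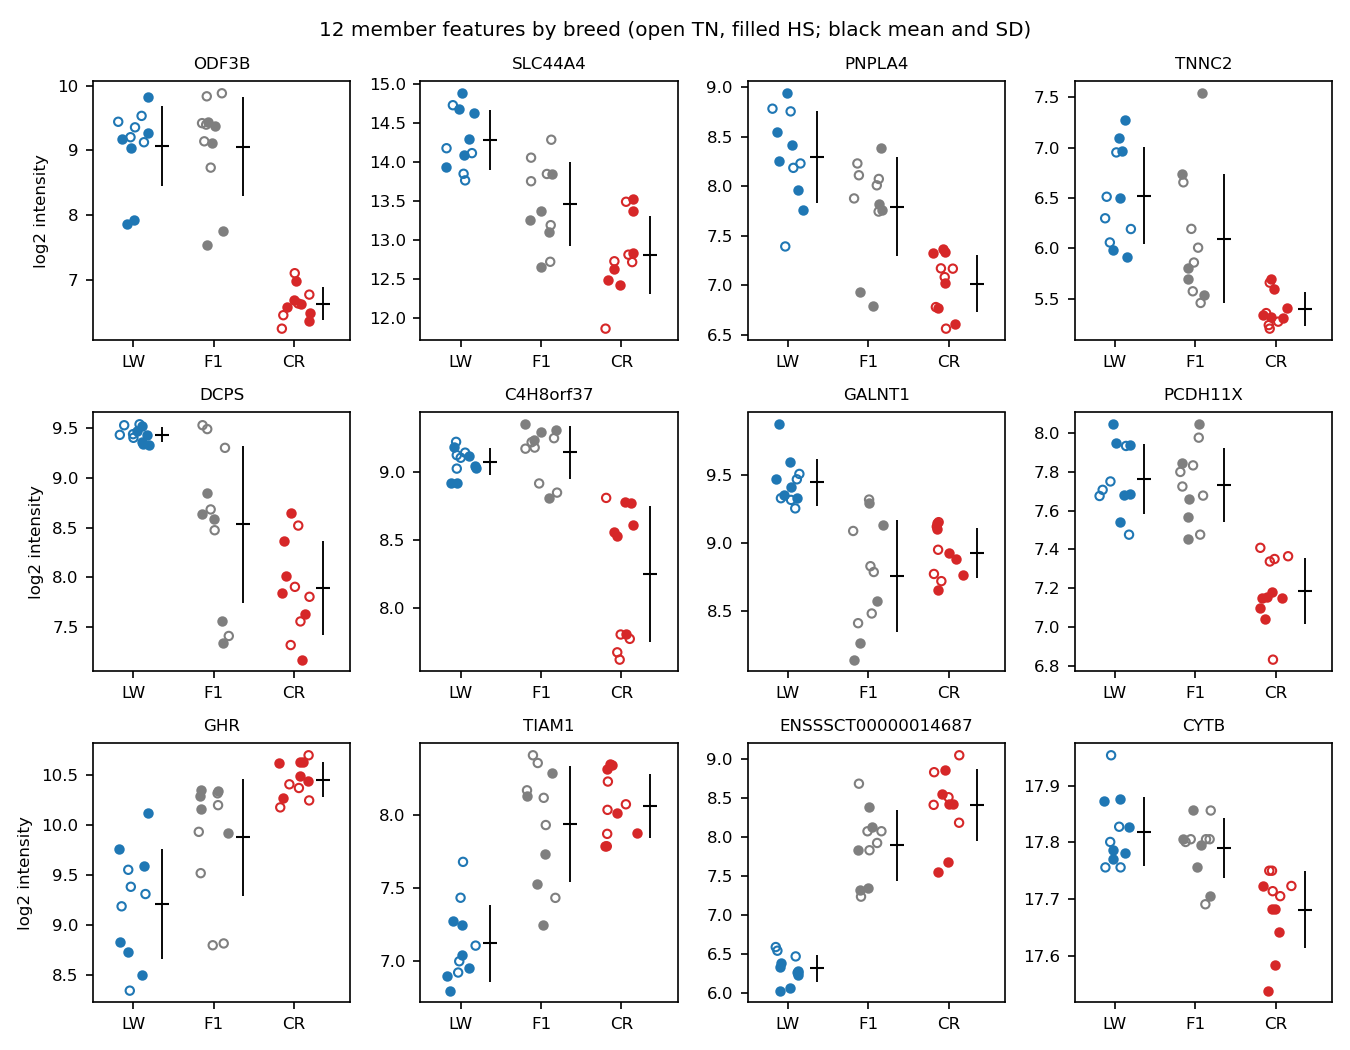
log2 intensity of 12 members in LW, F1 and CR (points are arrays, open for TN and filled for HS, black bars are mean and SD). The LW and CR points do not overlap in any panel, and the F1 points range from the LW level in ODF3B and C4H8orf37 to below the CR level in GALNT1.

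Among the 63 members without a symbol, the largest differences in each direction exceeded those of the named genes in the same direction. TC592761, whose sequence the files liken to coiled-coil domain containing 17, lay between 8.32 and 9.80 in LW, between 5.24 and 6.46 in CR and between 7.69 and 9.74 in the F1. It was 9.63-fold higher in LW, with 10 of 11 CR arrays well above background. AJ963268, an unannotated pig transcript, lay between 6.91 and 7.96 in LW, and was not well above background on any CR array. Its LW level exceeded that of CR by at least 4.79-fold, a bound taken against the lowest signal well above background on each CR array. At the other end were ENSSSCT00000014687 and ENSSSCT00000008541, both described in the files as a protease. They were 4.26-fold and 3.67-fold lower in LW, shared 28 bases, and had F1 arrays in the CR range in 8 of 11 cases, the same 8 for both. In 5 of the 105 members the files describe a protease of this kind or an envelope, reverse transcriptase or transposase sequence, and 216 features of the table carry such a description. That search was made after the members had been seen. TC539268 shared 58 bases with a probe of LAMC1, the laminin gamma 1 chain, and both were higher in LW, by 1.06 and 1.05.

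The rule did not use the F1 arrays, and their position between the parental means is described first. It is 0 where the F1 mean equals the CR mean and 1 where it equals the LW mean. Over the 105 members its median was 0.57, with quartiles at 0.41 and 0.74. The F1 mean lay between 0.25 and 0.75 for 68 members, at 0.75 or above for 26 and at 0.25 or below for 11. Members higher in LW had a median position of 0.61 (45 between, 18 near LW and 2 near CR), and members lower in LW one of 0.48 (23 between, 8 near LW and 9 near CR). Because the position has the parental means in it, it is a description.

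The F1 was then tested against the mid-parent, the mean of the LW and CR means, with limma and Benjamini-Hochberg adjustment over all 45667 features. At an adjusted p under 0.05 this called 18 of the 105 members (17.1%), and 2.88% of all features. In 15 of the 18 the F1 was near LW and in 3 it was near CR. The median size of the difference was 0.12 log2 units over the members and 0.07 over all features. The 87 members not called had a median position of 0.50, and 68 of them lay between 0.25 and 0.75. A p that misses the threshold does not show that the F1 of those members was midway. The 18 had the same direction on each of the 5 slides, which their selection on the same arrays largely fixes. With slide as a random block 20 members were called, and all 18 were among them.

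The F1 of 4 named genes differed from the mid-parent. ODF3B exceeded it by 1.17 ± 0.19 (SE, adjusted p = 0.0023 by limma), which put the F1 mean at position 1.00, with 7 F1 arrays in the LW range, 2 above it and 2 between the ranges. Both features of C4H8orf37 were called, at 0.50 ± 0.11 (adjusted p = 0.00949) and 0.31 ± 0.06 (adjusted p = 0.00328). All 11 F1 arrays were nearer to LW on both, and on each feature 5 of them, 3 in common, lay above the highest LW array. PCDH11X is known as an X-linked gene, of which a male pig carries 1 copy, so the mid-parent is not its additive level. Its F1 mean exceeded the mid-parent by 0.26 ± 0.07 (adjusted p = 0.0332) at position 0.95, with 9 F1 arrays in the LW range and 0 in the CR range. This call was lost without F1 HS 1, F1 HS 2, F1 TN 4, F1 TN 5 or F1 TN 6, where the adjusted p ran from 0.0512 to 0.104, and with LW HS 3 taken as Creole (0.119), processed signals (0.0535) or normexp background correction (0.0679). GALNT1 was the exception in direction. Its F1 mean fell 0.43 ± 0.10 short of the mid-parent (adjusted p = 0.0157) at position -0.33, with 5 F1 arrays below the lowest CR array, and without F1 HS 2 its adjusted p was 0.0559.

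Of the next named members, DDHD2 was at 0.35 ± 0.10 (adjusted p = 0.0559, position 0.91), TIAM1 at 0.34 ± 0.11 (adjusted p = 0.0792, position 0.13), RNF216 at 0.19 ± 0.07 (adjusted p = 0.13, position 0.19), FOXP2 at 0.21 ± 0.09 (adjusted p = 0.189, position 0.71) and GPAT3 at -0.21 ± 0.09 (adjusted p = 0.214, position 1.01). None of these 5 passed the threshold, but DDHD2 did so with slide as a random block (adjusted p = 0.042), with array weights (0.00717) and when any of 8 single arrays was left out, LW HS 3 among them (0.0462 without it). For SLC44A4, whose first feature had a position of 0.44, the difference from the mid-parent was -0.08 ± 0.17, and for GHR at position 0.46 it was 0.07 ± 0.16.

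The other 13 called members carried no symbol. AJ963268 was at 1.02 ± 0.10 (adjusted p = 1.63e-06), and its F1 values, of 6.24 or more (median 7.26), were well above background on 11 arrays. Its CR arrays were not, so the mid-parent rests on values at background and the size is uncertain, from 0.67 with normexp to 2.54 with processed signals. TC592761 exceeded the mid-parent by 1.10 ± 0.18 (adjusted p = 0.00194). For TC542345 the F1 lay 0.87 ± 0.10 below the mid-parent (adjusted p = 4.2e-06) and close to LW, but LW was well above background on only 2 arrays and the F1 on 1. AJ962357 was not well above background on any LW or F1 array, so its CR level was at least 1.53-fold above LW, and its F1 difference of -0.48 ± 0.06 (adjusted p = 0.00023) sets F1 values at background against a mid-parent of which 1 side is at background. It was -0.29 with normexp and -1.60 with processed signals, and that of TC542345 -0.52 and -2.27. TC553889 had all 11 F1 arrays in the LW range (-0.45 ± 0.07, adjusted p = 0.000757, and -0.73 with processed signals). In TC602154 the F1 mean went beyond LW, at position 1.46, with F1 arrays from 5.86 to 8.94 against 6.02 to 7.59 in LW, and its call was lost without F1 HS 2 (adjusted p = 0.0531). AJ657997, at position -0.02, was 1 of the 3 called members near CR (0.43 ± 0.10, adjusted p = 0.0129). ENSSSCT00000014687 was another, at position 0.24 (0.51 ± 0.13, adjusted p = 0.0279), and its call was lost without F1 HS 1, F1 HS 2 or F1 HS 5 (adjusted p from 0.0658 to 0.0716), with LW HS 3 taken as Creole (0.0713) and with normexp background correction (0.0789).

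**Figure D3:**
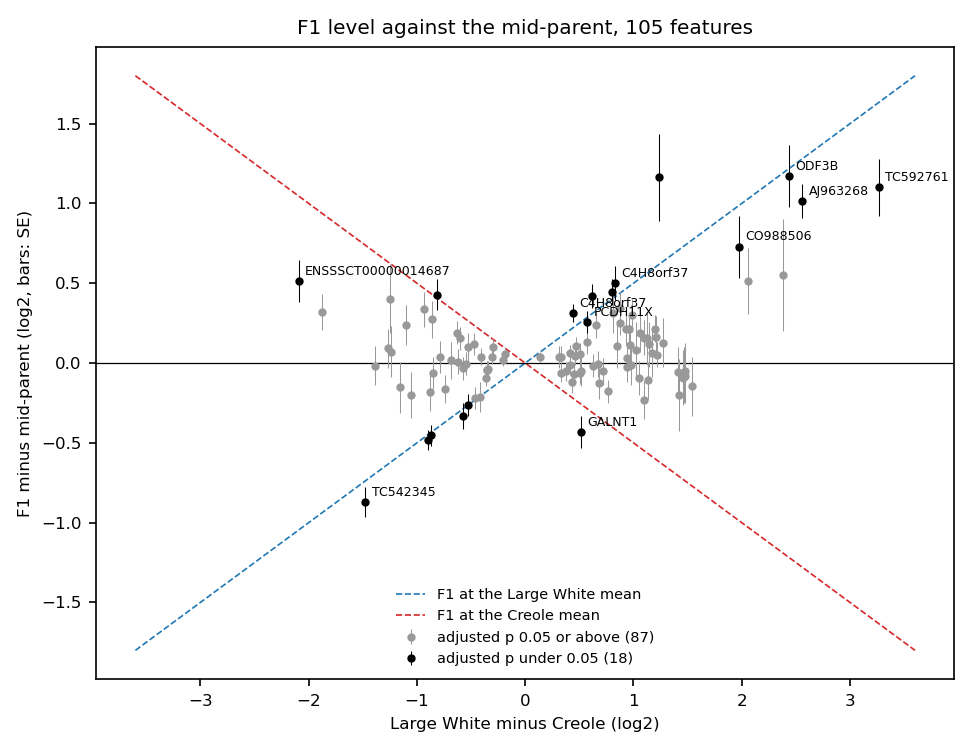
F1 minus mid-parent (vertical axis, log2, bars are SE) against LW minus CR (horizontal axis, log2) for the 105 members, with dashed lines where the F1 equals a parental mean. The 18 called members (black) lie close to the LW line in 15 cases, and the 87 others (grey) include some as far from 0 with larger errors, such as LOC100524282 at 0.55.

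The median SD over the 11 F1 arrays was 0.29 for the members, against 0.19 over all features, and in 65 of 105 members the F1 SD exceeded that of both parental breeds. The rule limited the parental spreads and not that of the F1, so this comparison is a description, and over all features the median SD was similar in LW (0.20), CR (0.19) and the F1 (0.19). Of the 1155 F1 values, 530 (45.9%) lay in the LW range, 414 (35.8%) in the CR range, 130 (11.3%) between the ranges, 58 (5.02%) beyond LW and 23 (1.99%) beyond CR. For 84 members the F1 arrays occupied both parental ranges. In 16 members no F1 array was in the CR range, and in 5 none was in the LW range. Single F1 pigs also differed in their median position over all members, from 0.43 in F1 HS 3 to 0.81 in F1 TN 1 (SD 0.14 over 11 arrays), and the share of members on which an F1 pig was nearer to LW ran from 43.8% to 69.5%.

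For genes with more than 1 member feature, the F1 pigs could be placed by each feature separately. All 5 features at the SLC44A4 site placed the same 4 F1 arrays in the LW range (F1 HS 1, F1 TN 1, F1 TN 2 and F1 TN 6), the same 6 in the CR range, and 1 in neither. Both PNPLA4 features placed F1 HS 4 and F1 HS 5 in the CR range and the other 9 in the LW range. PNPLA4 and PCDH11X are known as X-linked genes, of which a male pig carries 1 copy. Both CHCHD7 features placed the same 6 arrays in the LW range and the same 4 in the CR range. For CYTB, in the maternally inherited mitochondrial genome, 9 F1 arrays lay in the LW range and 2 in the CR range, but the gap between the breeds was small. Those 2 were F1 HS 4 and F1 TN 4, so only F1 HS 4 was in the CR range for both CYTB and PNPLA4. The 3 TNNC2 features placed 2 arrays in the LW range together and 3 in the CR range, and differed for 5. The 2 PDE4B features differed for 5 arrays as well, and the 2 C4H8orf37 features for 8.

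**Figure D4:**
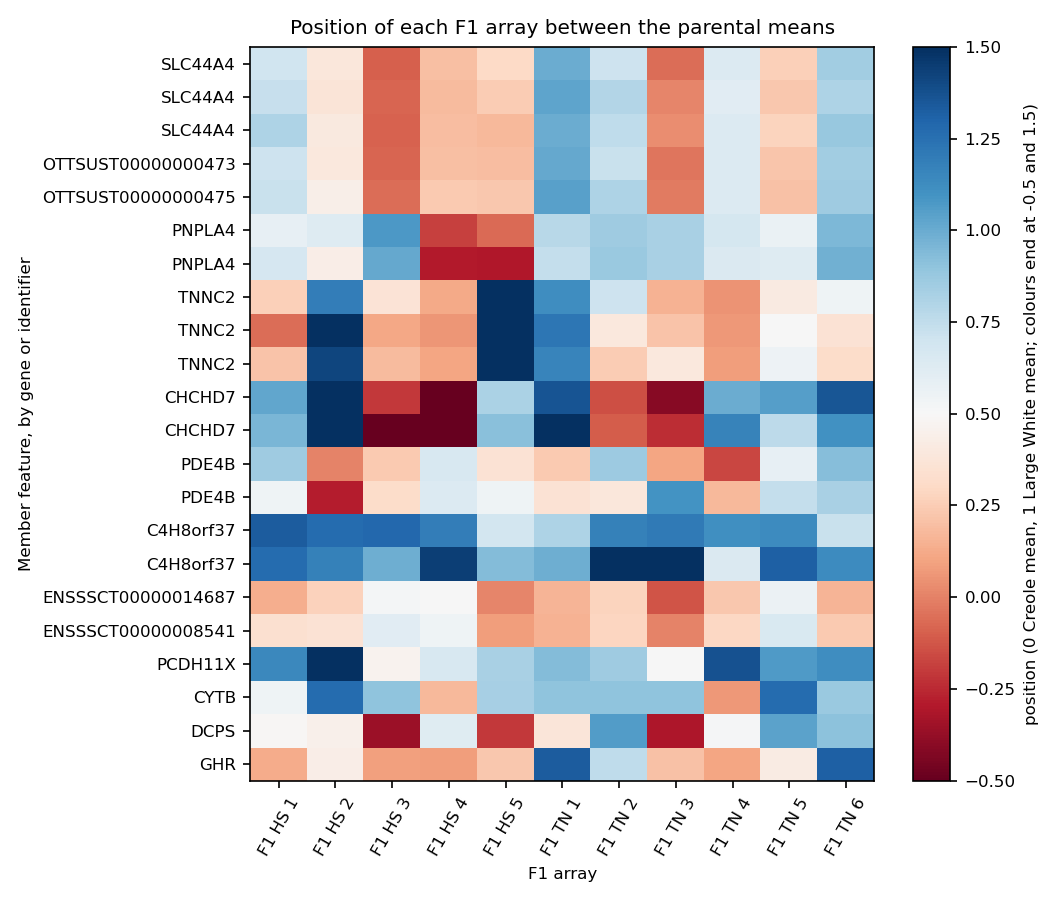
Position of each of the 11 F1 arrays (columns) between the CR mean (0) and the LW mean (1) for members of genes with several member features, the 2 protease transcripts and 4 further genes (rows), with the colour scale ending at -0.5 and 1.5. Rows of 1 gene show the same columns as near CR (red) or near LW (blue) for SLC44A4, PNPLA4 and CHCHD7, and F1 HS 4 and F1 HS 5 are the darkest red columns of PNPLA4.

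Other features of the same genes were compared with the members, since a probe measures only its own stretch. The table held 76 other features for 24 of the 34 genes, and 66 of the 76 had the direction of the member. Their median size was 0.27 log2 units. In 50 of the 76 the difference was in that direction and above 0.5 of the member's size, in 10 genes this held for every other feature, and in 9 genes for none. The rule selects on separated ranges, which favours large differences among the members but does not fix them to be larger. The other WNT2B feature differed by -0.50 against -0.30 for the member, and other OAT features by up to 0.63 against 0.43.

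GHR had 1 feature apart from the rest. Its 6 other features were also lower in LW, but by only 0.24 to 0.37 against 1.24 for the member. TIAM1 went further, with 3 other features that were 0.16 to 0.35 higher in LW while the member was 0.94 lower. The other DCPS feature differed by -0.15 against 1.54, the other LOC100524282 feature by 0.11 against 2.38, and the 2 other PDE4B features by 0.02 and -0.04 against 0.71 and 0.63. None of these other features shared more than 10 bases with the member. CTSA (0.02 against 0.47) had the same pattern. In contrast, all 10 other OAT features were higher in LW by 0.27 to 0.63, all 20 other CYTB features by 0.09 to 0.37, and the 3 other ZPBP features by 0.49 to 0.98, of which 2 had the same 60 bases as the member. A GALNT1 feature with the same 60 bases as the member was 0.57 higher in LW and missed the rule by an overlap of 0.03. SPAG6 (-0.49 and -0.79), SLC45A2 (-0.62) and IGFBP5 (0.69) also kept their direction on features outside the rule. The second IGFBP5 probe shared 7 bases with the member, whereas the second SLC45A2 probe shared 55. For SLC44A4 the 3 other features were dim, with LW means from 5.78 against 14.28 for the first member feature, and were 0.13 to 0.56 higher in LW. The GLB1L member overlapped 2 probes of ANKZF1 on the opposite strand by 56 and 40 bases, and those differed by 0.10 and 0.01.

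**Figure D5:**
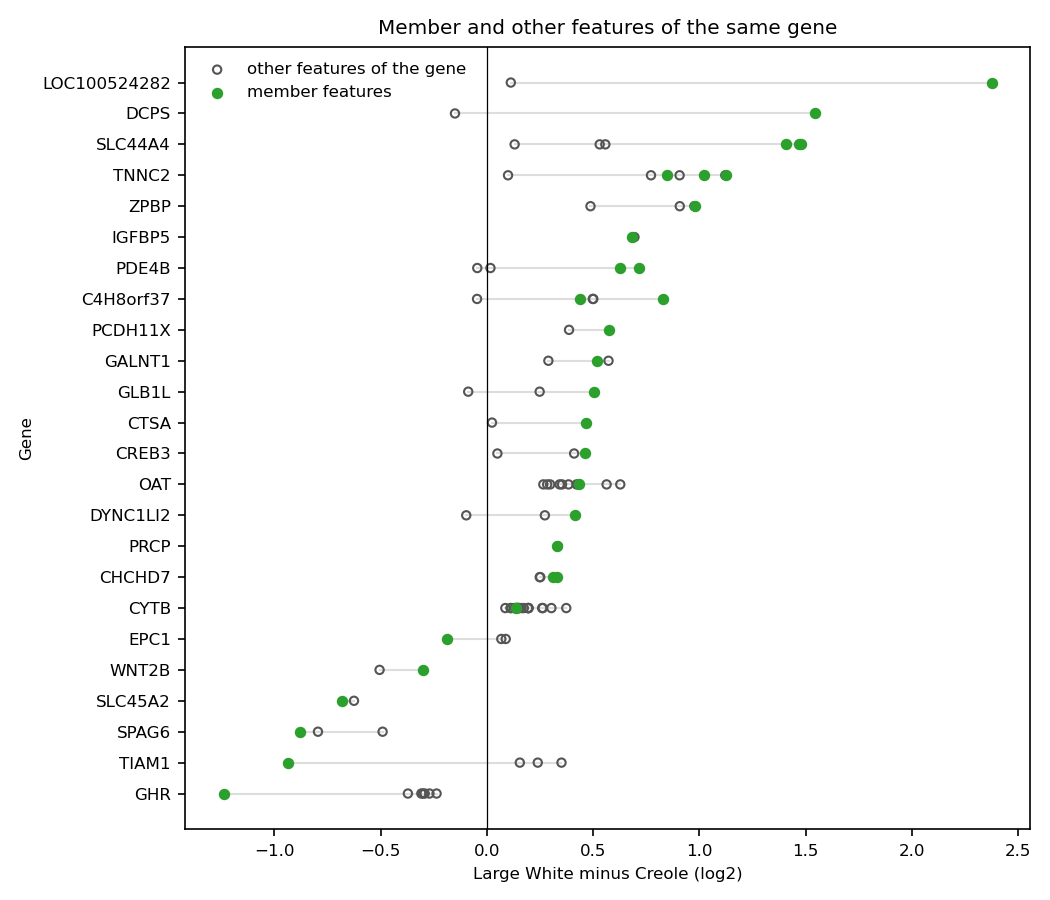
LW minus CR difference (horizontal axis, log2) of member features (filled) and of all other features of the same gene (open) for the 24 genes that have both. Member and other features lie together for OAT, ZPBP, CYTB and IGFBP5 and far apart for LOC100524282, DCPS, TIAM1 and GHR.

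Neighbouring genes were looked for in the gene order of assembly Sscrofa11.1. The 34 genes were spread over 19 chromosomes, and only TNNC2 and CTSA lay close together, with 6 protein-coding genes between them. Of those 6, SNX21, ACOT8, ZSWIM3 and NEURL2 had 9 features in the table, and their differences ran from -0.26 to 0.07, so that none approached the values of TNNC2 or CTSA. The next closest pairs were IGFBP5 with GLB1L, with 40 genes between them, and SLC45A2 with GHR, with 46.

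No member was called between the temperatures, but the rule bears on this comparison. It required LW and CR to stay apart over both temperatures, which disfavours features with a large temperature shift within those breeds. The member counts are therefore a description. HS against TN, fitted over all 33 arrays with breed in the model, called 0 of the 105 members by limma at an adjusted p under 0.05, and 0.0219% of all features. At an unadjusted p under 0.05 there were 8 members (7.62%), against 8.77% of all features. The smallest adjusted p was 0.264, for AJ963268 (-0.32 ± 0.10), whose CR arrays were at background. ODF3B was at -0.42 ± 0.18 (adjusted p = 0.5) and CREB3 at 0.14 ± 0.05 (adjusted p = 0.42), with 14 of the 17 HS arrays above the TN mean of their own breed for CREB3. The median size of the temperature difference was 0.07 log2 units over the members and 0.06 over all features. TN and HS pigs were slaughtered on different days, so day and temperature cannot be told apart.

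The gap between the breeds was also compared between temperatures, in a model with 1 mean for each of the 6 groups. The rule asks LW and CR to stay apart on the arrays of both temperatures. That limits how far the gap of a member can change, so the member values of this comparison are a description. By limma 0 members were called, and 0.0% of all features. At an unadjusted p under 0.05 there were 6 members (5.71%), against 5.27% of all features, and the smallest adjusted p of a member was 0.941. The median size of the gap was 0.83 in TN and 0.83 in HS, and it was wider in HS for 66 members. The first C4H8orf37 feature had the smallest unadjusted p, with a gap of 1.19 in TN and 0.53 in HS. Its CR arrays fell into a low set between 7.62 and 7.81 and a high one between 8.53 and 8.81. FOXP2 had a gap of 0.70 in TN and 1.18 in HS, and DDHD2 one of 0.57 and 1.12, both with the same adjusted p of 0.941.

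Markers of pituitary and other cell types were set beside the members, since bulk tissue cannot tell fewer cells of a type from less RNA per cell. Over the brightest feature of each of 10695 genes, 7.25% were called between LW and CR. No marker gene had a member feature. Of 6 fibroblast markers, 4 were lower in LW and passed the test, namely DCN (-0.69 ± 0.13, adjusted p = 0.000857), COL1A2 (-0.56 ± 0.10, adjusted p = 0.000616), COL3A1 (-0.62 ± 0.14, adjusted p = 0.0049) and COL1A1 (-0.61 ± 0.17, adjusted p = 0.0264), with a median of -0.59 for the list. LUM (0.02) and PDGFRA (-0.13, well above background on only 15 arrays) were not called. The mean of the 6 fibroblast markers over an array ran from 10.43 to 11.31 in LW and from 10.76 to 11.53 in CR. KDR (0.94 ± 0.14, adjusted p = 3.9e-05) and CDH5 (0.41 ± 0.13, adjusted p = 0.045) of 5 measured endothelial markers were higher in LW, while PECAM1 (0.19), TEK (-0.03) and VWF (-0.16) were not called, and the list mean ran from 9.72 to 11.01 in LW and from 9.57 to 10.55 in CR. GHRHR, the receptor through which the hypothalamus drives growth hormone cells, was lower in LW (-0.40 ± 0.10, adjusted p = 0.012), and POU1F1, the factor of the growth hormone, prolactin and thyrotropin lineage, also (-0.34 ± 0.10, adjusted p = 0.0363). GNRHR (0.59 ± 0.15, adjusted p = 0.0112) and NR5A1 (0.56 ± 0.14, adjusted p = 0.0141), genes of the gonadotropin cells, were higher in LW. Of the same lists, GH1 (-0.07), LHB (0.30), FSHB (0.23), PITX1 (-0.05) and LHX3 (-0.10) were not called, so 1 of 2 somatotroph and 1 of 3 gonadotroph genes passed the test. The part of these markers in the members' differences was not tested.

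None of the other lists gave a member either. The lists of lactotroph, thyrotroph, corticotroph and melanotroph, folliculostellate, posterior lobe, leukocyte and erythroid markers had 0 genes called by limma at an adjusted p under 0.05. At an unadjusted p under 0.05 there were 2 of 3 corticotroph and melanotroph markers (PAX7 and PCSK2, known from melanotrophs, with POMC at a difference of 0.0082), 1 of 1 thyrotroph, 2 of 8 leukocyte and 2 of 3 erythroid markers, and 0 in the other 3 lists, against 20.1% of all genes at that threshold. TSHB, the thyrotropin subunit gene, was at 13.98 ± 1.88 in LW and 15.45 ± 1.64 in CR (adjusted p = 0.153). Of 22 interferon-stimulated genes measured, 3 were called, all higher in LW, with XAF1 at 9.40 in LW and 7.91 in CR (adjusted p = 0.000162). The counts were 1 of 83 cytosolic ribosomal proteins (lower in LW), 8 of 43 glutathione and xenobiotic enzymes (4 in each direction) and 3 of 57 heat shock genes (1 higher and 2 lower). Over all genes 460 were called higher in LW and 315 lower.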

How the data were processed

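RNA of 33 pituitaries was labelled with Cy3 and hybridised to a 1-colour Agilent porcine array, 1 array per pig. The authors deposited a table of log2 values for 45667 features, which they obtained by quantile normalization of median pixel intensities, with no background subtracted. This table gave the main values. The deposited scanner files give the intensity of each spot (Agilent Feature Extraction 10.10.1.1, as in the submitters' processing notes), other marks (0 or 1) for spots above background, and probe names and sequences. They were used for background marks and for alternative values.

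Features were named from the gene name in the array design or through gene identifiers, accessions and synonyms in RefSeq (assembly Sscrofa11.1, names and gene order only). Of 45667 features, 23608 received a symbol (10695 genes).

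Tests were run with limma 3.58.1 in R 4.3.3, two-sided, on all features and all 33 arrays, with breed and temperature as fixed effects, or 1 mean per breed-by-temperature group for the gap by temperature. P-values were adjusted by Benjamini-Hochberg at 0.05. The study's random effects (pen, slaughter day, father, mother) are not in the labels and were not fitted. The fits were tested on simulated data. Python 3.11.15 scripts made counts and plots.

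The members, gene lists and tests were chosen with earlier results of these data known. Values are given for the 8 named members with the largest difference in each direction, genes with 2 or more member features, the 10 named members with the smallest adjusted p for the F1, and the 2 unnamed members with the largest difference in each direction. Other members that are named were chosen after their values were seen. For a list, the brightest feature of each gene was used. Where a breed was not well above background on any array, its bound on each array was the higher of its own value and the lowest signal well above background. Gaps of ranges are differences between the lowest array of the brighter and the highest of the dimmer breed. The number of arrays, 5 or 6 per group, limits the precision. Some results on excluded genes are not reported here.

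Alternatives were values rebuilt from the scanner files, the processed signal minus the 75th percentile of its array, normexp (offset 50) with quantile normalization, slide as a fixed or random block, array weights, LW HS 3 left out or taken as Creole, only features well above background on all arrays, a model with breed only, medians in place of means, and each array left out.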

Additional observations from a re-analysis of the deposited data

Results flagged for a closer look

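For 33 member features chosen for description, each of the 6 groups was examined for 1 array far from the others of its group, 198 sets of values in all, of which chance alone flags about 1 in 20. In 6 cases an array stood apart. Of these, 3 were on the first C4H8orf37 feature. There CR HS 5 was at 7.81 while the other CR HS arrays lay between 8.53 and 8.78, CR TN 2 was at 8.81 while the other CR TN arrays lay between 7.62 and 7.80, and F1 HS 5 was at 8.82 while the other F1 HS arrays lay between 9.24 and 9.36. On GPAT3, CR HS 3 was at 7.76 against 6.97 to 7.17 for the rest of its group. On PCDH11X, CR TN 1 was at 6.83 against 7.34 to 7.41. On the third TNNC2 feature, LW TN 2 was at 6.77 against 5.99 to 6.19.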

How the results depend on the processing

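With the same genes left out in each setting, the number of separating features was 105 (131 with those genes) and changed most with the breed given to LW HS 3 and with the slide effect. It was 27 with LW HS 3 taken as Creole (11 of them members) and 166 with the fitted slide effect removed (88 of them members). It ran from 89 to 121 under the other 5 alternatives and from 105 to 148 when 1 array was left out. F1 against mid-parent called 18 members, 13 to 24 under 10 alternatives (13 with only features well above background on all arrays, which left 89 members to test) and 12 to 22 when 1 array was left out, the lowest without F1 HS 2. HS against TN and the gap by temperature called 0 members in the reported fit, under 9 alternatives each and with 1 array left out. Of all features, HS against TN called 10 in the reported fit, 92 with slide as a fixed block and 54 as a random block. The median F1 position was 0.57, from 0.53 to 0.57 under 8 alternatives and from 0.55 to 0.59 with 1 array left out. For single features the difference kept its direction in all 1206 settings tried, and its side of the threshold in 1162. Of the rest, 30 lost a call and 14 gained one. CO988506 lost its call without F1 HS 1, F1 TN 1, F1 TN 2 or F1 TN 6 (adjusted p 0.0559 to 0.0784), AK239358 without F1 HS 2 (0.0664), and BP167167 without F1 HS 1, F1 HS 2, F1 HS 5, F1 TN 2, F1 TN 4 or F1 TN 5 (0.0507 to 0.0798), and both CO988506 (0.134 and 0.0554) and BP167167 (0.0825 and 0.0832) with LW HS 3 taken as Creole and with normexp. TIAM1 gained one without F1 HS 3, F1 HS 4 or F1 TN 3 (0.0209 to 0.0425), RNF216 without F1 HS 4 (0.0239), and DDHD2 without LW HS 3, LW HS 4, CR HS 2, CR TN 1, CR TN 4, F1 HS 3, F1 HS 4 or F1 TN 3 (0.0231 to 0.0462), with slide as a random block (0.042) and with array weights (0.00717). With processed signals the F1 difference was over 1.5 times the reported one for TC553889 (-0.73), TC555900 (0.73) and BP167167 (-0.45, and -0.15 with normexp). The cause was not tested. No paired analysis was possible because the labels do not say which pigs were littermates. Signal near background limits TC542345, AJ962357, AJ963268, TC534937 and TNNC2. In part it also limits TC602154, which was well above background on 8 of the 11 CR arrays.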
